A study of Mus musculus with 4 samples.

Results

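The histone genes encode the proteins around which DNA is wound in the nucleus, and their messenger RNAs were followed here in microglia, the resident macrophages of the brain. Members were the protein-coding genes of the deposited tables whose names start with Hist1h, Hist2h, Hist3h, Hist4h, H1f, H2af or H3f. The rule found 50 genes among the 20308 genes in any table. Of these, 41 belong to the replication-dependent clusters, 34 of them to Hist1 on chromosome 13, 4 to Hist2, 2 to Hist3 and 1 to Hist4. The other 9 are variant histone genes. GENCODE M21 annotates 82 genes under the same rule, and the 32 that stood in none of the tables are not analysed here.

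RNA came from microglia isolated at postnatal day 11 from mice of a pair of genotypes and was sequenced on an Illumina HiSeq instrument. Pd1fl/fl mice, whose PD-1 receptor gene carries recombination sites, gave 2 libraries, and 2 more are labelled Pd1cKO-Cx3, the conditional knockout. The labels leave unsaid which driver Cx3 stands for, whether the Pd1fl/fl mice carried it, and whether the libraries of a group came from separate animals. The p-values therefore measure the spread between these libraries, which may be technical. The study compared the genotypes, and the labels state no question about histones. Values follow the order Pd1fl/fl replicate 1, Pd1fl/fl replicate 2, then Pd1cKO-Cx3 replicate 2 and Pd1cKO-Cx3 replicate 3, with the numbers as in the sample titles.

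Replication-dependent histone genes supply the bulk of new H1, H2A, H2B, H3 and H4 while DNA is copied in S phase. Most of their messages end in a short stem-loop in place of a poly(A) tail, and the stem-loop binding protein (gene Slbp) holds that end during processing and translation. Some of these genes also have a polyadenylation signal further downstream, and cells that have left the cell cycle can use it to make a tailed message. Variant histones such as H3.3 and H2A.Z are made throughout the cell cycle from genes with introns and tailed messages, and are placed into chromatin by dedicated chaperones.

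The stem-loop was looked for in the annotated GENCODE M21 transcripts of every member, since it is the feature that separates these classes of message. It was found in 33 of the 41 replication-dependent members and in 1 of the 9 variants, H2afx, against 7 of 21819 other protein-coding genes (0.0321%). The sequences below show the stem-loop in capitals with its flanks, 5′ to 3′, for members on which the results turn and for the most common forms.
Hist1h1c: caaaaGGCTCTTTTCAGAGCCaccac
Hist3h2ba: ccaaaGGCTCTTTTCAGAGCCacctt
Hist1h2bg: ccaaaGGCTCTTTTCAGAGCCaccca
Hist1h3e: aaaacGGCTCTTTTAAGAGCCacctc
Hist4h4: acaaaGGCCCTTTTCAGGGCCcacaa
Hist1h4i: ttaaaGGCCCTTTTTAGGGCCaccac
H2afx: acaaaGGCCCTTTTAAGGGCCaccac
The form of Hist1h1c was shared by 17 members, among them the H1 gene Hist1h1c and the H2B genes Hist3h2ba and Hist1h2bg printed here. The form of Hist1h3e was shared by 6 members. The form of Hist4h4 was found in 5 members, all of them H4 genes, and that of Hist1h4i in 2, both H4 genes. The other 4 forms stood in 1 member each.

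The promoters of 43 members could be matched to RefSeq entries (GRCm38.p6, 250 bases before to 50 after the start), 36 replication-dependent and 7 variant. Searched on both strands were CCAAT, the octamer ATTTGCAT known from H2B promoters, TATAAA, and the E2F-type word TTTCCCGC. The pair printed below contrasts a cluster promoter with a variant promoter, with each match in capitals on either strand (ATTGG is CCAAT read on the other strand). The first is the promoter of Hist1h2bg (chr13:23571150-23571449, plus strand), which also holds the start of the H2A gene Hist1h2ae on the other strand. The second is the promoter of H2afz (chr3:137864237-137864536, plus strand).
Hist1h2bg: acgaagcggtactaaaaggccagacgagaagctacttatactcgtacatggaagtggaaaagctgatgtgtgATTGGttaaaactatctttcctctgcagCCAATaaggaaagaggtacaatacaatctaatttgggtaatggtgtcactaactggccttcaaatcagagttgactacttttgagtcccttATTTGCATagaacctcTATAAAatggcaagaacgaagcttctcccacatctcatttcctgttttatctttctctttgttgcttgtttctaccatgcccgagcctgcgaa
H2afz: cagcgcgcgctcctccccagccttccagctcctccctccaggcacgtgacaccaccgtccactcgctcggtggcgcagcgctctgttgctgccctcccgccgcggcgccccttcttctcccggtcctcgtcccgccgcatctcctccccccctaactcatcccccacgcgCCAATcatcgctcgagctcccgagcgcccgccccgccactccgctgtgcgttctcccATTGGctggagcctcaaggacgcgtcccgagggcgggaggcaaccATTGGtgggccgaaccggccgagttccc
The Hist1h2bg window held CCAAT on each strand, the octamer and TATAAA without any overlap between them, and the H2afz window held CCAAT words alone. CCAAT was found in 31 of 36 replication-dependent promoters (86.1%) and 5 of 7 variant promoters (71.4%), against 37.8% of all 27025 promoters. TATAAA was found in 22 of 36 (61.1%) and 0 of 7, against 14.1% of all promoters. The octamer was found in 7 of 36 replication-dependent promoters (19.4%), all of them among the 15 of H2A and H2B genes. Of the 9 H2B promoters, 3 held it. The H2B genes Hist1h2bc and Hist2h2be had no matched promoter. Their starts lie in the windows of the H2A genes Hist1h2ac and Hist2h2ac, which both held the octamer. The octamer was in 0 of the 7 variant promoters, against 1.74% of all promoters. The windows of Hist1h2ae and Hist1h2bg overlap, so the same octamer, TATAAA and CCAAT words were counted for both. Those of Hist1h2bf and Hist1h2ad also overlap, and the same TATAAA and CCAAT words were counted for both. TTTCCCGC was found in 1 of 36, that of Hist1h4a, and in 0 of 7, against 1.10% of all promoters. In 4 H2A and H2B pairs the starts lay 175 to 250 bases apart on opposite strands, as for Hist1h2ae and Hist1h2bg. A match describes letters in these windows and not a bound site.

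The libraries held 15908954, 14854625, 14258420 and 15486984 counts over genes. The targeted gene Pdcd1 had 0 and 43 counts in the Pd1fl/fl libraries and 179 and 154 counts in those labelled Pd1cKO-Cx3 (log2 fold change 2.95 ± 1.48, adjusted p = 0.695), which goes against the labels. Counts of the X-linked transcript Xist were 13374 in Pd1fl/fl replicate 1 and 0 in the other 3 libraries (unlisted, so at most 4, in Pd1fl/fl replicate 2). Those of the Y-linked gene Ddx3y were 0 in Pd1fl/fl replicate 1 and 1891 to 2064 in the others. By these sex-linked transcripts the groups were not balanced, and the part of this in the histone values was not tested. All 10 microglial markers were present. Their levels summed to 72513 and 69407 CPM (read counts scaled to the same library total) against 58487 and 56098 CPM. Cx3cr1 and Fcrls passed the test as lower. Of the 10, 5 were lower and 0 higher without overlap, and 2 had a positive fold change. Markers of border-associated macrophages summed to 434 and 518 CPM against 672 and 643 CPM, with 6 of 8 higher without overlap. Sums for mural cells and fibroblasts were 98.0 and 49.8 against 163 and 176 CPM (4 of 8 higher, 1 lower), with Notch3 at 0 in both Pd1fl/fl libraries. Those for endothelium were 98.9 and 66.7 against 137 and 110 CPM (5 of 8 higher). Oligodendrocyte lineage markers held 697 and 327 against 1132 and 397 CPM (2 of 8 higher), while astrocyte markers held 393 and 355 against 458 and 303 CPM (3 of 7 higher). Neuron markers held 32.3 and 34.9 against 59.7 and 36.5 CPM (2 of 7 higher). Monocyte and neutrophil markers held 39.7 and 25.0 against 84.2 and 71.0 CPM, of which Plac8 alone gave 16.8 and 17.3 against 71.1 and 67.3 CPM. The other 3 tested markers of that list, Ccr2, S100a8 and S100a9, had negative fold changes (list median -0.53, 1 higher and 1 lower without overlap). Over all genes tested, 21.3% were higher and 18.8% lower without overlap. The part of these markers in the histone values was not tested.

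Most histone counts came from variant genes. The sources used here do not say whether libraries were selected for poly(A) tails, which most cluster messages lack. Cluster genes also share more sequence with other genes (median 59.9% of 50-base stretches in no other gene, against 91.2% for variants). The part of either in the class levels was not tested. The 9 variant genes summed to 1589 and 1613 CPM in the Pd1fl/fl libraries and to 1565 and 1738 CPM in those labelled Pd1cKO-Cx3 (1601 ± 16.8 against 1652 ± 122, SD, n = 2 each, ratio 1.03), a ratio that was 0.977 without Pd1cKO-Cx3 replicate 3. The 41 replication-dependent genes summed to 281 and 207 CPM against 226 and 232 CPM (244 ± 52.6 against 229 ± 4.50, ratio 0.939). Pd1fl/fl replicate 1 had the highest replication-dependent sum and Pd1fl/fl replicate 2 the lowest, so the groups overlapped for this class. The direction of that ratio turned on Pd1fl/fl replicate 1, the library with the Xist counts, without which it was 1.11. Replication-dependent genes took 15.0%, 11.4%, 12.6% and 11.8% of all histone counts, and the variant sum was 5.65, 7.80, 6.93 and 7.48 times the replication-dependent sum. In such bulk RNA, fewer cells that express a gene and less RNA per cell cannot be told apart.

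In each class 1 gene dominated. Hist1h1c (ENSMUSG00000036181, chr13:23738808-23740367), which encodes linker histone H1.2, held 56.9%, 47.8%, 52.5% and 54.7% of the replication-dependent sum. H3f3b (ENSMUSG00000016559, chr11:116021912-116027962), which encodes the replacement histone H3.3, held 77.9%, 77.1%, 73.8% and 70.9% of the variant sum. For H3f3b both shares under the Pd1cKO-Cx3 label were below both Pd1fl/fl shares, and for Hist1h1c the groups overlapped. Without H3f3b, the other 8 variants summed to 351 and 369 CPM against 410 and 506 CPM (360 ± 12.9 against 458 ± 67.9), a ratio of 1.27 with no overlap. Without Hist1h1c, the other 40 replication-dependent genes summed to 121 and 108 CPM against 107 and 105 CPM, a ratio of 0.928. Here too the groups did not overlap, but Pd1fl/fl replicate 2 (108.0 CPM) and Pd1cKO-Cx3 replicate 2 (107.4 CPM) were nearly level.

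**Figure D1:**
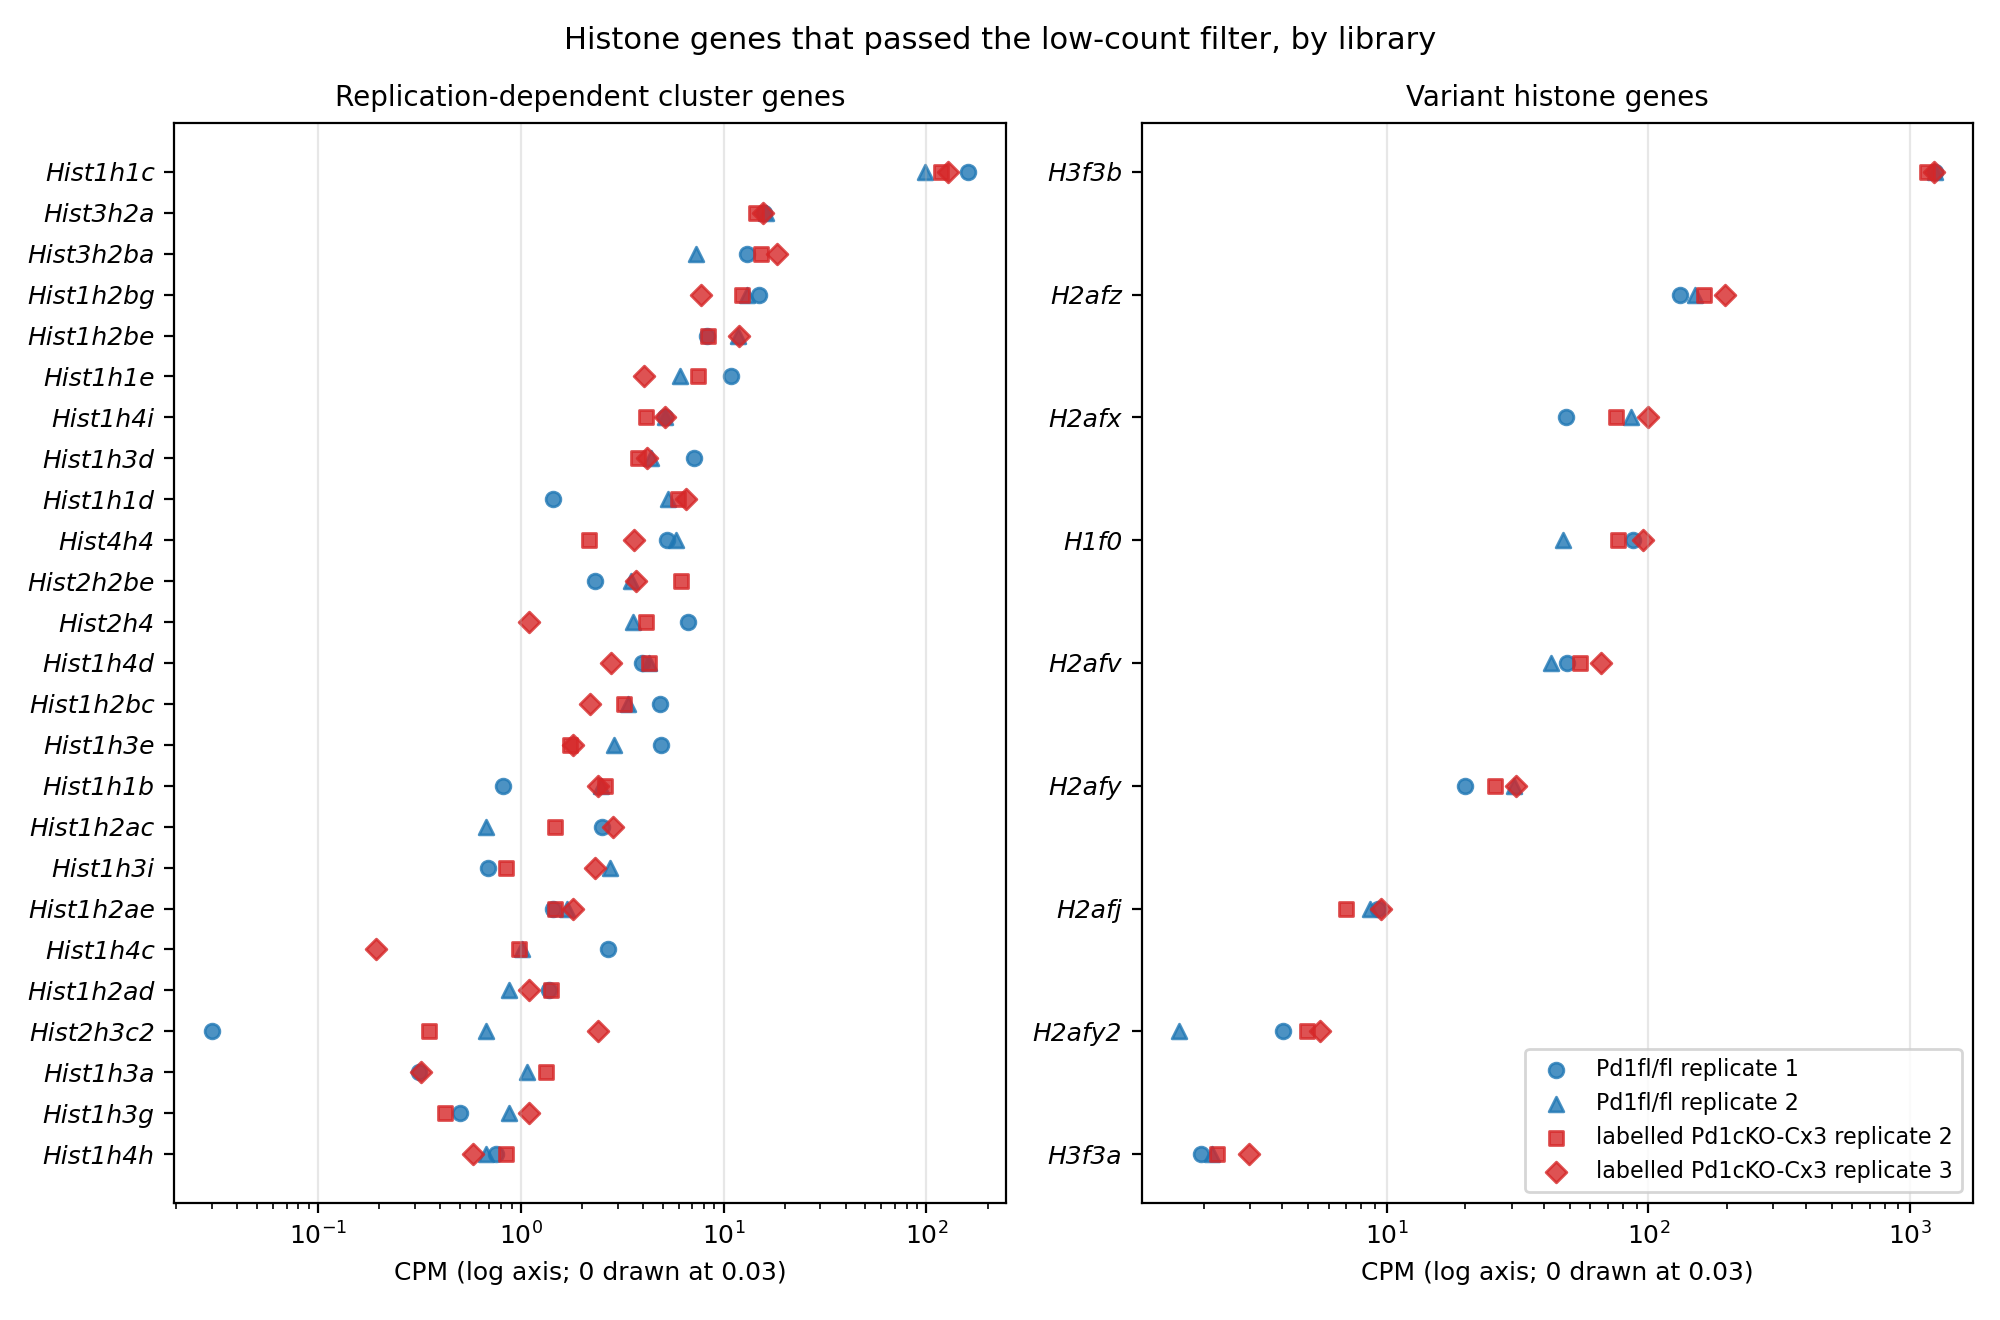
Level of each histone gene that passed the low-count filter, in CPM on a log axis, with 1 point per library (circles and triangles, Pd1fl/fl; squares and diamonds, labelled Pd1cKO-Cx3). Hist1h1c at 98.8 to 160 CPM and H3f3b at 1156 to 1244 CPM lead their classes, and the groups overlap in 15 of 25 cluster rows and 4 of 9 variant rows.

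Between the genotype labels, edgeR called 6 of 15097 genes over the whole table at an adjusted p under 0.05 (0.0397% of genes), with 3 higher and 3 lower (0.0199% each), and none of the histone genes was among them. Of the 50 members, 34 passed the low-count filter, 25 replication-dependent and all 9 variants. At an unadjusted p under 0.05 the count was 0 of 34 members, against 8.09% of all genes tested, and in DESeq2 it was also 0, against 8.58% of all genes. DESeq2 called 233 of 15097 genes after adjustment (1.54%) and 0 of the histone genes. Adjusted p ranged from 0.733 to 0.998 in the replication-dependent class and from 0.660 to 0.983 among variants. Fold changes were positive for 11 of 25 replication-dependent genes (median log2 fold change -0.084, range -1.66 to 2.00) and for 7 of 9 variants (median 0.34, range -0.12 to 0.89), against 50.7% of all genes and a median of 0.0080. The difference between the classes was not tested.

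Groups without overlap were counted as a description. Among replication-dependent genes, 3 had both libraries labelled Pd1cKO-Cx3 above both Pd1fl/fl libraries and 7 had both below, out of 25 tested. Among variants, 4 were higher and 1 was lower, out of 9. Over all genes tested the same arrangement was found for 21.3% as higher and 18.8% as lower.

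**Figure D2:**
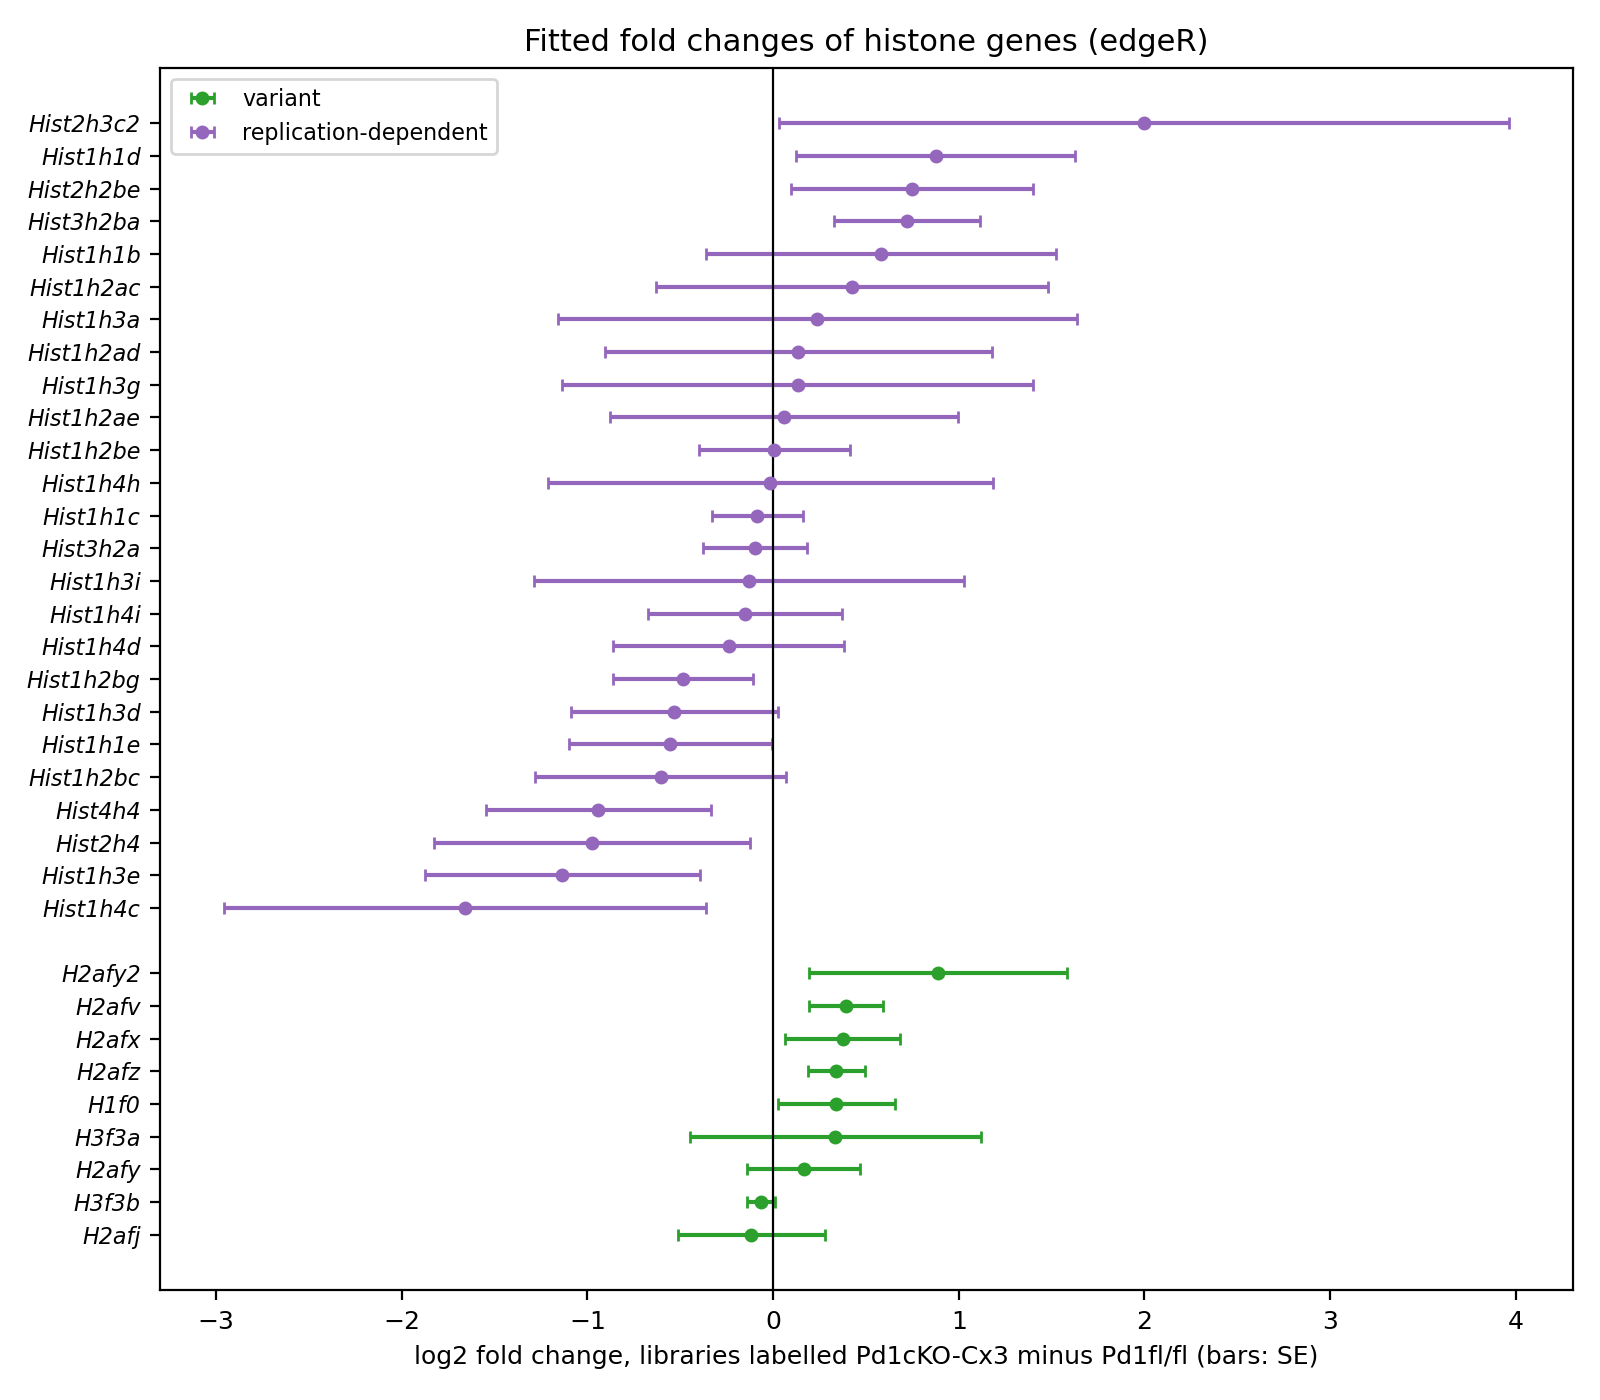
Fitted log2 fold change of each tested histone gene (libraries labelled Pd1cKO-Cx3 minus Pd1fl/fl, edgeR), with bars of 1 standard error. Replication-dependent genes spread from -1.66 to 2.00 and variants from -0.12 to 0.89, and no gene passed the test.

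Linker histones of the clusters bind the DNA between nucleosomes. Hist1h1c stood at 160 and 98.8 CPM in the Pd1fl/fl libraries and at 119 and 127 CPM in those labelled Pd1cKO-Cx3. The Pd1fl/fl values enclosed the others, with a log2 fold change of -0.084 ± 0.24 (SE; adjusted p = 0.980) that was 0.30 without Pd1fl/fl replicate 1. Its annotated message runs on for 840 bases past the stem-loop printed above. Hist1h1e, which encodes H1.4, held 10.8 and 6.06 CPM against 7.50 and 4.07 CPM (-0.55 ± 0.55, adjusted p = 0.887). Its fold change was -0.078 without Pd1fl/fl replicate 1 and -1.06 without Pd1cKO-Cx3 replicate 2. The groups overlapped, and Hist1h1e overlaps Hist1h2be on the same strand, so reads from the shared stretch cannot be assigned to either. Hist1h1d, which encodes H1.3, was lowest in Pd1fl/fl replicate 1, at 1.45 and 5.32 CPM against 5.96 and 6.52 CPM (0.87 ± 0.75, adjusted p = 0.850). Without that library the fold change was 0.22, and without Pd1fl/fl replicate 2 it was 2.10. The 6 linker genes of the clusters summed to 174 and 113 CPM against 135 and 140 CPM, a ratio of 0.960 that was 1.22 without Pd1fl/fl replicate 1.

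H2A and H2B form the dimers at the faces of the nucleosome. The best expressed H2A gene of the clusters was Hist3h2a, at 15.8 and 16.1 CPM against 14.4 and 15.6 CPM (-0.098 ± 0.28, adjusted p = 0.980). It was slightly lower in both libraries labelled Pd1cKO-Cx3, and it overlaps Trim17 on the same strand. Its neighbour Hist3h2ba (ENSMUSG00000056895, chr11:58948920-58949533), an H2B gene, held 13.01 and 7.27 CPM against 15.4 and 18.3 CPM (0.72 ± 0.39, adjusted p = 0.733). Both libraries labelled Pd1cKO-Cx3 lay above both Pd1fl/fl libraries, and the fold change ranged from 0.36 to 1.20 when each library was left out. Hist1h2bg, whose promoter is printed above, went the other way, with 15.0 and 12.99 CPM against 12.3 and 7.75 CPM (-0.49 ± 0.37, adjusted p = 0.830). Its fold change was -0.18 without Pd1cKO-Cx3 replicate 3 and -0.86 without Pd1cKO-Cx3 replicate 2. Hist1h2ae, which starts from the same stretch, stood at 1.45 and 1.68 CPM against 1.47 and 1.81 CPM, so the groups overlapped. Hist1h2be held 8.30 and 11.8 CPM against 8.35 and 11.9 CPM (0.0069 ± 0.41, adjusted p = 0.997), the same spread in both groups. Hist2h2be held 2.33 and 3.50 CPM against 6.17 and 3.68 CPM (0.75 ± 0.65, adjusted p = 0.855), without overlap. For this gene Pd1fl/fl replicate 2 and Pd1cKO-Cx3 replicate 3 were nearly level. Summed over 11 members, H2B stood at 44.5 and 39.9 CPM against 46.3 and 44.4 CPM (ratio 1.07), and 6 H2A members summed to 21.2 and 19.5 CPM against 18.7 and 21.7 CPM (ratio 0.995).

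H3 and H4 form the inner tetramer of the nucleosome, and the cluster genes for H4 encode the same protein. The 9 replication-dependent H4 genes summed to 25.1 and 20.9 CPM in the Pd1fl/fl libraries and to 16.7 and 13.6 CPM in those labelled Pd1cKO-Cx3 (23.0 ± 3.02 against 15.1 ± 2.21, SD, n = 2 each). The ratio was 0.657, without overlap, and 0.589 to 0.726 when each library was left out. Fold changes were negative for 6 of the 6 H4 genes tested (median -0.59), where 50.7% of all genes were above 0. This stayed at 0 positive genes of 6 under the other normalizations and DESeq2, and 1 or 2 of 6 were positive without Pd1cKO-Cx3 replicate 2, Pd1cKO-Cx3 replicate 3 or Pd1fl/fl replicate 1. None of the 6 passed the test. Hist1h4i, the most abundant H4 gene, held 5.15 and 5.12 CPM against 4.14 and 5.17 CPM (-0.15 ± 0.52, adjusted p = 0.983), with overlap. Hist4h4 held 5.28 and 5.79 CPM against 2.17 and 3.62 CPM (-0.94 ± 0.61, adjusted p = 0.776), lower in both libraries labelled Pd1cKO-Cx3. Hist2h4 held 6.66 and 3.57 CPM against 4.14 and 1.10 CPM (-0.97 ± 0.85, adjusted p = 0.855), with overlap. Hist1h4c had 43 and 15 counts against 14 and 3 counts (-1.66 ± 1.30, adjusted p = 0.831), and Pd1fl/fl replicate 1 stood above the other 3 libraries, of which Pd1fl/fl replicate 2 (1.01 CPM) and Pd1cKO-Cx3 replicate 2 (0.982 CPM) were nearly level. The fold change of Hist1h4c was -0.78 without Pd1fl/fl replicate 1 and -3.21 without Pd1cKO-Cx3 replicate 2, and that of Hist4h4 was -0.62 and -1.34 without Pd1cKO-Cx3 replicates 2 and 3.

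The 9 replication-dependent H3 genes summed to 16.2 and 13.9 CPM against 8.91 and 12.7 CPM (15.0 ± 1.66 against 10.8 ± 2.65, ratio 0.717, 0.592 to 0.841 when each library was left out). Both libraries labelled Pd1cKO-Cx3 lay below both Pd1fl/fl libraries in this sum, but the 6 tested genes split into 3 positive and 3 negative. Hist1h3d held 7.10 and 4.38 CPM against 3.79 and 4.20 CPM (-0.53 ± 0.56, adjusted p = 0.899). Hist1h3e held 4.90 and 2.89 CPM against 1.75 and 1.81 CPM (-1.14 ± 0.74, adjusted p = 0.777). Both were lower without overlap, but Hist1h3d had 65 counts in both Pd1fl/fl replicate 2 and Pd1cKO-Cx3 replicate 3. Pd1fl/fl replicate 1 was the highest each time. Without that library the fold changes were -0.14 for Hist1h3d and -0.71 for Hist1h3e, and without Pd1fl/fl replicate 2 they were -0.84 and -1.46. Hist2h3c2 had 0 and 10 counts against 5 and 37 counts (2.00 ± 1.96, adjusted p = 0.886), so its groups overlapped and most of its counts came from Pd1cKO-Cx3 replicate 3.

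**Figure D3:**
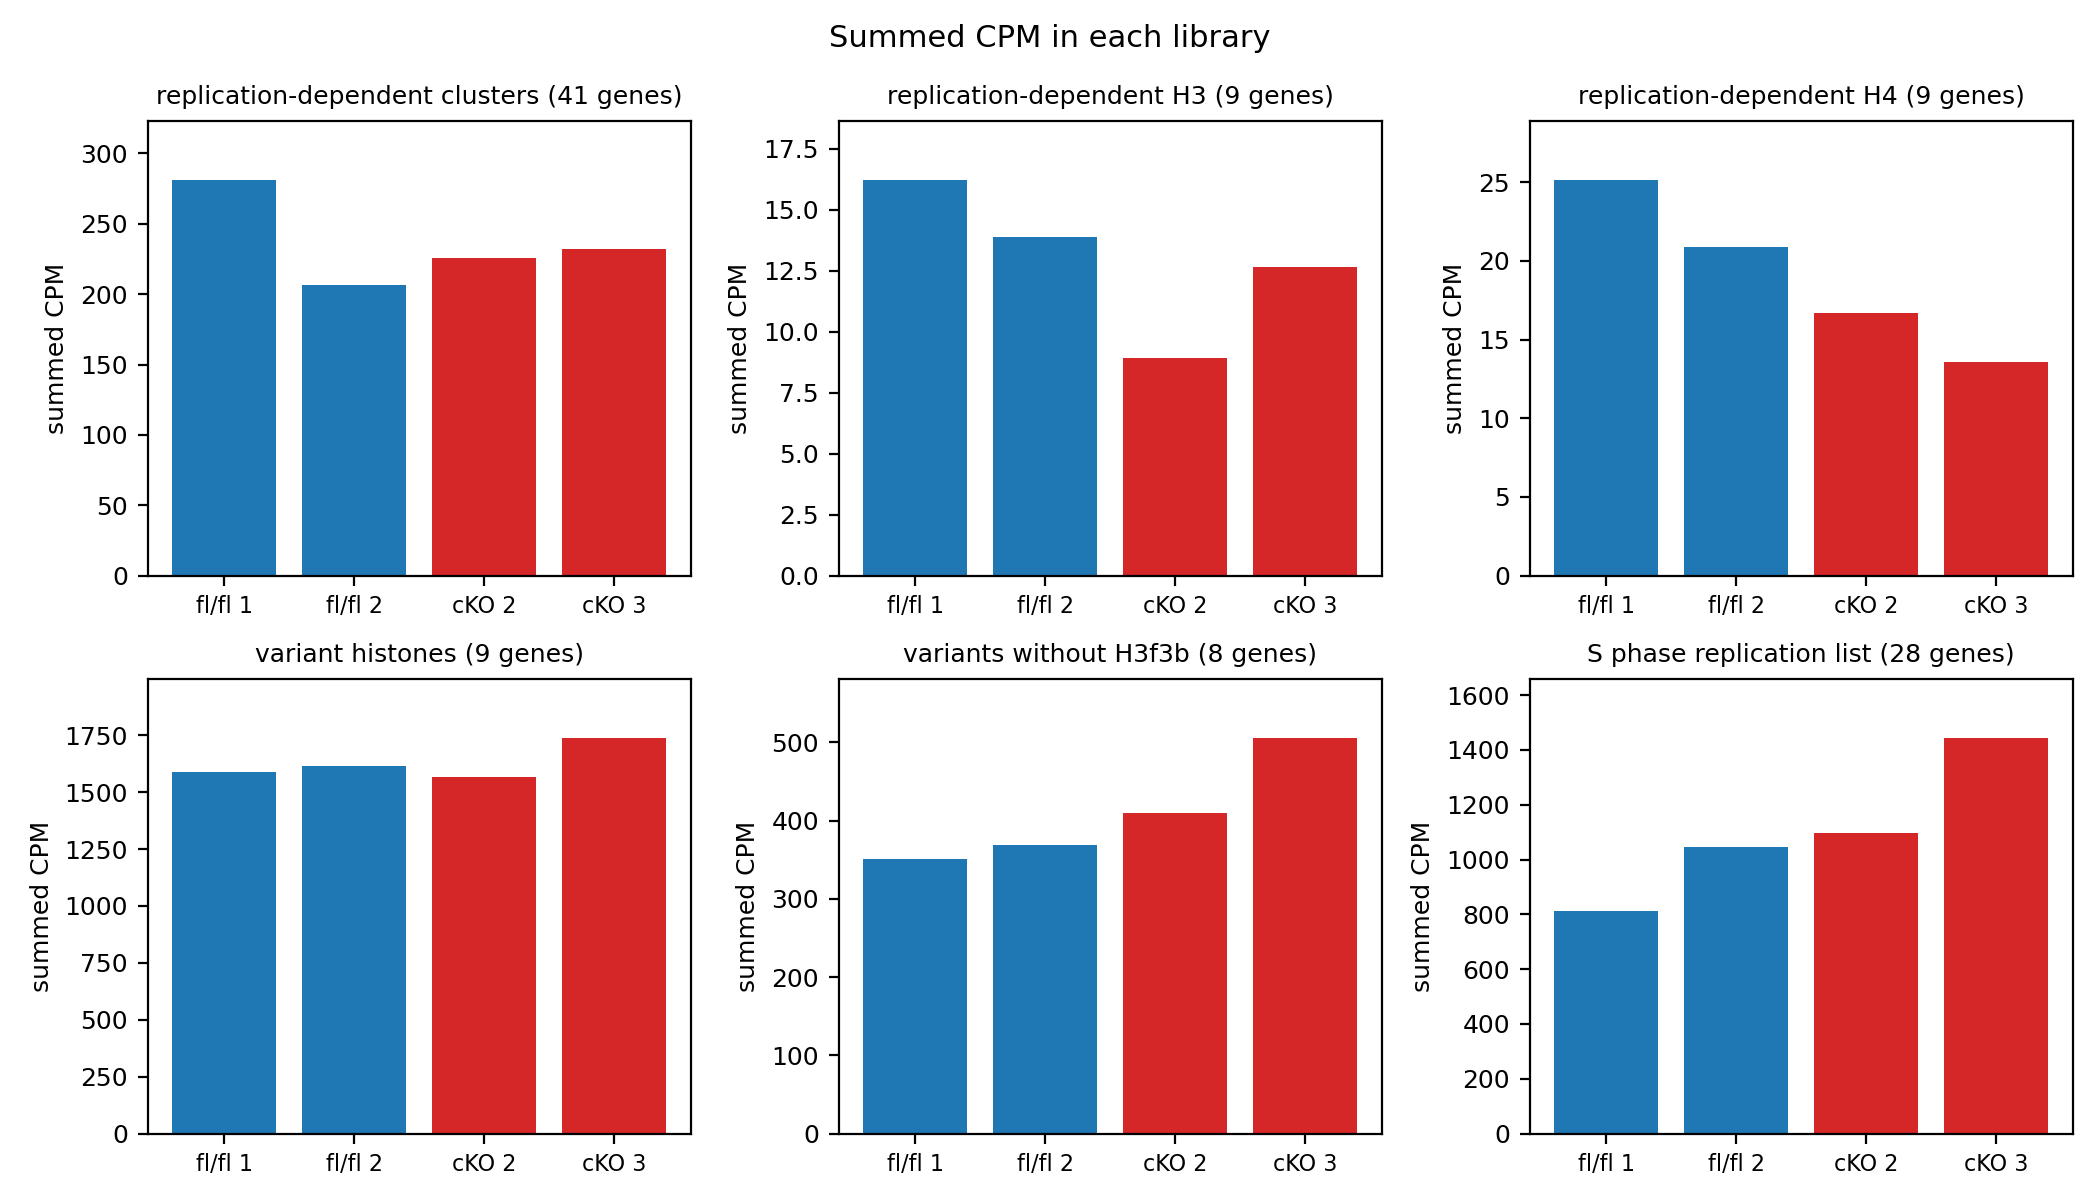
Summed CPM in each library for 5 groups of histone genes and for the list of S phase replication genes, as bars from 0 (blue, Pd1fl/fl replicates 1 and 2; red, labelled Pd1cKO-Cx3 replicates 2 and 3). The H3 and H4 cluster sums are lower in both red bars, the sum of variants without H3f3b is higher in both, and the sum of all 41 cluster genes overlaps.

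Low members filled the rest of the clusters. Of the 41 replication-dependent genes, 27 had a count in every library, 6 reached a mean of 5 CPM and 20 lay below a mean of 1 CPM. The 16 that did not pass the filter had mean levels of 0.0330 to 0.897 CPM. Of these, 6 had listed counts above 0 in 1 library only. For the other library of the same group, up to 4 unlisted counts were set to 0 in each of these 6 genes. These included the testis gene Hist1h1t (17 counts in Pd1fl/fl replicate 1), Hist1h1a (10 counts in Pd1cKO-Cx3 replicate 2) and Hist1h4a (9 counts in Pd1fl/fl replicate 1), which were picked out after their values were seen. Hist1h3f had 40 counts in Pd1fl/fl replicate 1 and 4 to 6 in the others. At these counts a difference was not detectable.

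Among the variants, H3f3b, 1 of a pair of genes for the same H3.3 protein, had the smallest standard error of the members. Its levels were 1239 and 1244 CPM in the Pd1fl/fl libraries and 1156 and 1233 CPM in those labelled Pd1cKO-Cx3 (-0.065 ± 0.077, adjusted p = 0.915). Both of the latter were lower than both Pd1fl/fl libraries. H3f3a, the partner gene, stood at 1.95 and 2.15 CPM against 2.24 and 2.97 CPM (0.34 ± 0.78, adjusted p = 0.971). Per kilobase of annotated exon (RPKM), the mean level of H3f3b was 409 and that of H3f3a 0.665. In the longest H3f3a transcript 69.7% of the 50-base stretches occur in no other annotated gene. The processed pseudogene H3f3c, which is outside the members, held 1.48 to 2.84 CPM. H3f3a also overlaps H3f3aos and Gm17275 on the other strand, while H3f3b overlaps no annotated gene. How reads shared between genes were counted is not stated, so the level of H3f3a is uncertain. The part of this in the gap between the pair was not tested.

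H2A.Z marks the starts of many active genes and is made from a pair of genes, H2afz and H2afv. H2afz (ENSMUSG00000037894, chr3:137864487-137866922) held 132 and 150 CPM against 163 and 196 CPM (0.34 ± 0.15, adjusted p = 0.660). Both libraries labelled Pd1cKO-Cx3 lay above both Pd1fl/fl libraries, and its unadjusted p of 0.0719 was the smallest of all members. H2afv followed the same order of groups, with 48.7 and 42.6 CPM against 54.7 and 65.9 CPM (0.39 ± 0.20, adjusted p = 0.708). Without Pd1cKO-Cx3 replicate 3 the fold changes were 0.21 for H2afz and 0.26 for H2afv, and without Pd1cKO-Cx3 replicate 2 they were 0.47 and 0.52. Of the 50-base stretches in their longest transcripts, 30.4% for H2afz and 100% for H2afv occur in no other annotated gene.

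H2A.X, which is phosphorylated around DNA breaks, is encoded by H2afx, the variant whose message carries the stem-loop printed above and runs on for 822 bases after it. H2afx held 48.2 and 85.5 CPM against 75.1 and 99.3 CPM (0.37 ± 0.31, adjusted p = 0.842). The groups overlapped, Pd1fl/fl replicate 1 was lowest, and without it the fold change was 0.016 (0.85 without Pd1fl/fl replicate 2). H1f0, the linker histone H1.0 that builds up in cells that no longer divide, held 87.1 and 47.3 CPM against 76.2 and 95.2 CPM (0.34 ± 0.31, adjusted p = 0.871). Here Pd1fl/fl replicate 2 was lowest, and without it the fold change was -0.031.

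The macroH2A histones carry a large extra domain and are enriched on silent chromatin. H2afy, which encodes macroH2A1, held 19.9 and 30.8 CPM against 26.0 and 31.1 CPM (0.16 ± 0.30, adjusted p = 0.958), with overlap. H2afy2, which encodes macroH2A2, held 4.02 and 1.62 CPM against 4.98 and 5.55 CPM (0.89 ± 0.70, adjusted p = 0.831), without overlap. Its fold change was 0.38 without Pd1fl/fl replicate 2 and 1.69 without Pd1fl/fl replicate 1. H2afj, the gene of H2A.J, held 9.24 and 8.62 CPM against 7.01 and 9.56 CPM (-0.12 ± 0.40, adjusted p = 0.983), with overlap. Summed over the 6 H2A variants, levels were 262 and 319 CPM against 331 and 407 CPM (ratio 1.27, 1.14 to 1.41 when each library was left out), and 5 of 6 fold changes were positive (4 to 6 when each library was left out). Cenpa, the centromeric H3 variant whose name falls outside the rule, held 52.0 and 70.6 CPM against 74.3 and 84.6 CPM (0.36 ± 0.21, adjusted p = 0.754).

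Set on the scale per kilobase, the order of mean levels over the 4 libraries was H3f3b at 409 RPKM, H2afz at 90.3, Hist1h1c at 80.8, H2afx at 55.7, H1f0 at 37.2, H2afv at 32.4, Hist3h2ba at 22.0 and Hist1h2bg at 19.4. H3f3b, at 388 to 418 RPKM, did not overlap any other member. H2afz ranged from 74.1 to 110 RPKM and Hist1h1c from 63.3 to 103, so these neighbours did not differ beyond their spread. The ranges of H2afx (34.8 to 71.8), H1f0 (23.0 to 46.3) and H2afv (26.1 to 40.3) also ran into each other. Hist1h1c was the only cluster gene among the 6 highest.

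Levels within the clusters were also described by annotated 3′ end. Genes were split by whether the transcript runs more than 100 bases past the stem-loop, a split chosen after the data were seen, with the nearest genes at 108 bases (Hist1h4a) and 74 bases (Hist1h3c). The 21 genes with such an extended end had a median level of 2.28 RPKM (0.0853 to 80.8). The 12 genes with a short end had a median of 0.305 RPKM (0.127 to 2.08), and the 8 with no stem-loop found had a median of 0.963 RPKM (0.0365 to 4.03). The longest annotated transcripts of these 8 run from 312 bases (Hist1h4k) to 2620 bases (Hist2h2be). A stem-loop past an annotated end would not be found, so these genes are not shown to lack it. All 6 cluster genes with a mean of at least 5 CPM were of the extended kind. The classes also differed in how far they resemble other genes. The median share of 50-base stretches in no other gene was 77.9% for extended ends, 45.5% for short ends and 48.9% for those with no stem-loop found. The part of this in the levels was not tested, and the sources used here do not say whether the libraries were selected for poly(A) tails.

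Copies of nearly the same sequence limit what can be counted for single cluster genes. Over the 41 replication-dependent genes the median share of 50-base stretches found in no other annotated gene was 59.9% (from 0.166% in Hist1h2br to 100%), against 91.2% over the 9 variants. The 13 cluster genes under 50% had a median level of 0.430 RPKM, and the 28 others had a median of 1.51 RPKM. Of the genes described above, Hist1h3e (26.6%), H2afz (30.4%), Hist2h3c2 (36.5%), Hist1h2bg (50.3%) and Hist1h3f (50.7%) share much of their sequence with other genes. How reads that fit several copies were counted is not stated in those sources, so their levels are uncertain. The variants H1f0, H2afj, H2afx, H2afy, H2afy2 and H3f3a overlap annotated genes on the other strand. So do the cluster genes Hist1h2ac, Hist1h2ad, Hist1h2ae, Hist1h2an, Hist2h2ac and Hist3h2a. Since strand use is not stated, reads from such partners cannot be told apart.

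**Figure D4:**
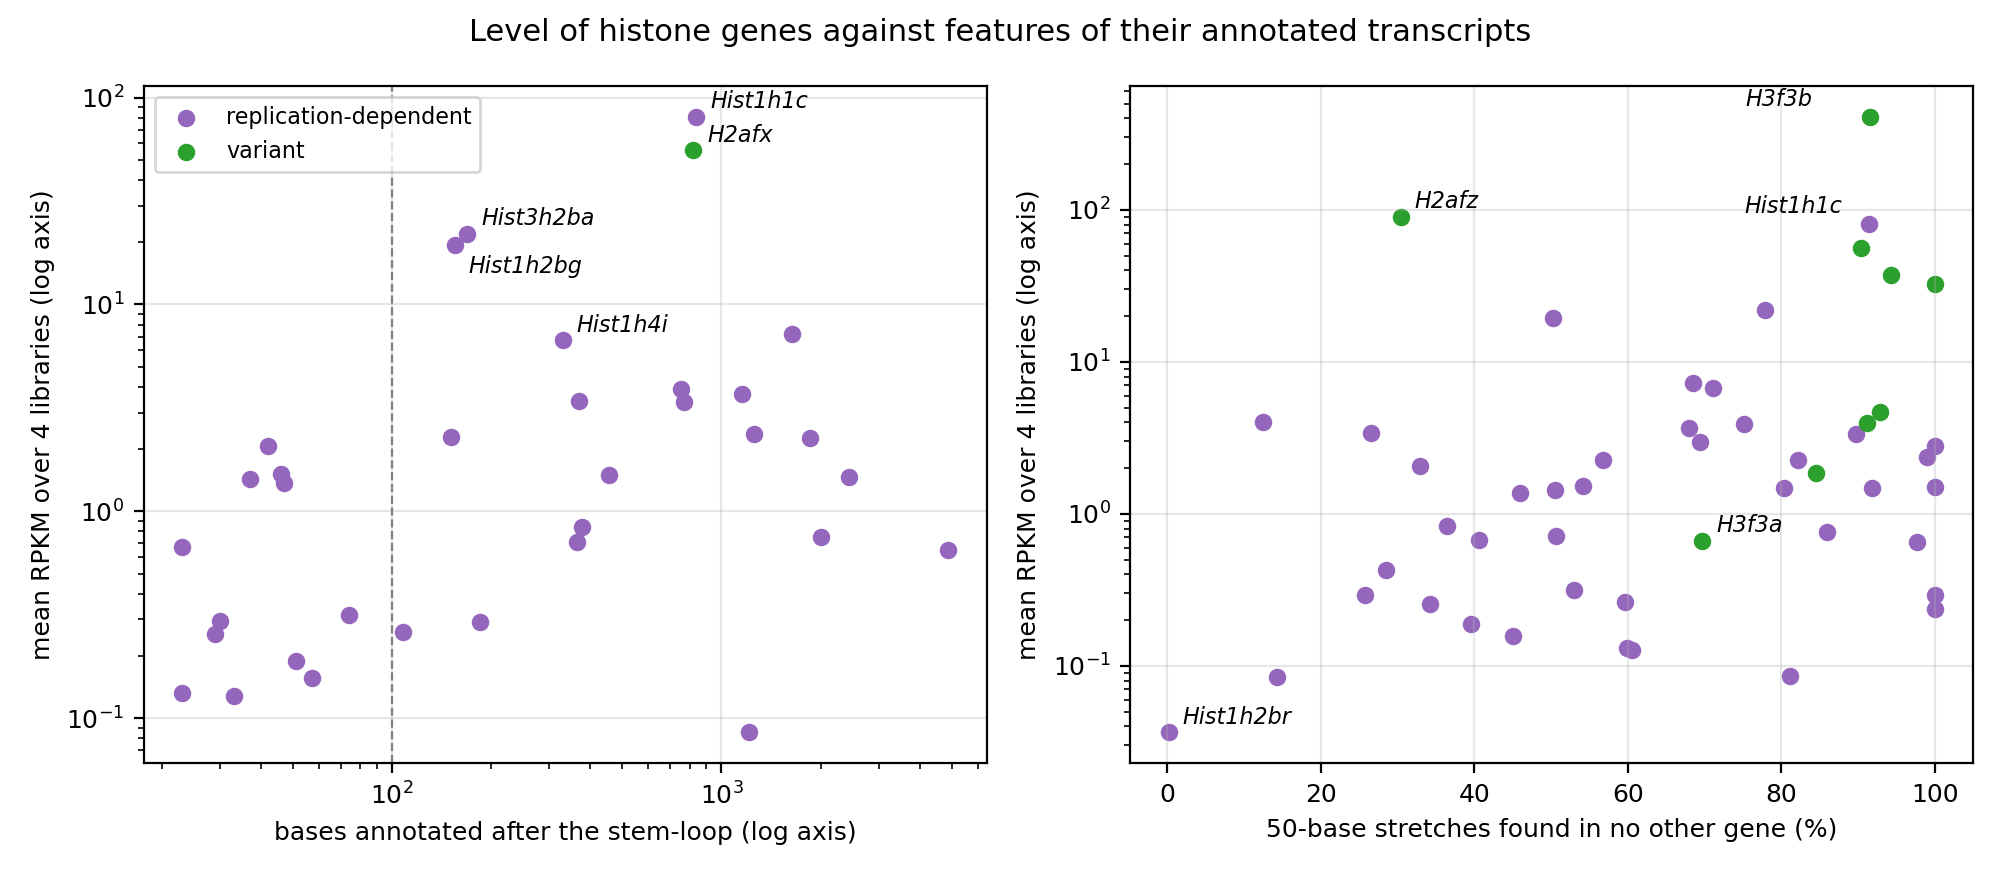
Mean level of histone genes in RPKM over the 4 libraries (log axis), against the bases annotated after the stem-loop (left, log axis, dashed line at 100 bases) and against the percentage of 50-base stretches found in no other gene (right), with 1 point per gene. Cluster genes above 5 RPKM all lie right of the dashed line, and H2afz combines a high level with 30.4% of unique stretches.

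The genes that process, transcribe and deposit histones were followed as lists beside the members. Of 18 genes for 3′ end formation and cluster transcription, 18 were tested, 0 passed the test, 2 were higher and 1 lower without overlap (21.3% and 18.8% of all genes), and the median log2 fold change was 0.056. Slbp stood at 99.3 and 127 CPM against 114 and 140 CPM, and Npat, the coactivator of cluster transcription, at 44.7 and 39.0 CPM against 43.1 and 30.7 CPM, both with overlap. Pou2f1, which encodes the octamer-binding factor Oct-1, held 16.2 and 18.1 CPM against 33.6 and 37.5 CPM (1.04 ± 0.24, adjusted p = 0.464), without overlap. Ccne2, a cyclin E gene, had a log2 fold change of 0.83 ± 0.44 (adjusted p = 0.725), and Srrt, a cap-binding partner in 3′ processing, 0.24 ± 0.17 (adjusted p = 0.819). Without Pd1fl/fl replicate 1 and without Pd1fl/fl replicate 2, respectively, these were 0.35 and 1.56 for Ccne2, 0.086 and 0.40 for Srrt, and 0.96 and 1.13 for Pou2f1.

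Of 29 histone chaperone and deposition genes, 29 were tested, 0 passed the test, 9 were higher and 3 lower without overlap (21.3% and 18.8% of all genes), and the median log2 fold change was 0.13. Daxx, a chaperone of H3.3, held 49.8 and 72.4 CPM against 82.3 and 95.0 CPM (0.53 ± 0.23, adjusted p = 0.649). Chaf1b, a subunit of the factor that loads H3 and H4 behind the replication fork, held 5.34 and 9.56 CPM against 12.8 and 15.3 CPM (0.91 ± 0.42, adjusted p = 0.673). Both were higher without overlap, as was the replicative helicase subunit Mcm2 (0.50 ± 0.23, adjusted p = 0.664). The fold change of Daxx was 0.28 without Pd1fl/fl replicate 1 and 0.83 without replicate 2, and that of Chaf1b 0.54 and 1.39. For Mcm2 it was 0.19 without Pd1cKO-Cx3 replicate 3 and 0.77 without Pd1cKO-Cx3 replicate 2.

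Of 28 S phase replication genes, 27 were tested, 0 passed the test, 12 were higher and 2 lower without overlap (21.3% and 18.8% of all genes), and 23 had a positive fold change (median 0.43), against 50.7% of all genes. The list summed to 811 and 1046 CPM in the Pd1fl/fl libraries and to 1096 and 1443 CPM in those labelled Pd1cKO-Cx3. Pd1fl/fl replicate 1 thus had the lowest sum of S phase genes and the highest sum of replication-dependent histones. Cdt1, which licenses replication origins, held 14.8 and 25.7 CPM against 38.9 and 41.8 CPM (0.98 ± 0.32, adjusted p = 0.542). Mcm7, another helicase subunit, had a log2 fold change of 0.74 ± 0.26 (adjusted p = 0.562), and Rrm1, a subunit of ribonucleotide reductase, 0.63 ± 0.21 (adjusted p = 0.542). Without Pd1fl/fl replicate 1 and without Pd1fl/fl replicate 2, respectively, fold changes were 0.64 and 1.44 for Cdt1, 0.50 and 1.03 for Mcm7, and 0.40 and 0.89 for Rrm1.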

How the data were processed

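The counts in the deposited tables are raw, whole-number reads of each gene, per the file headers. Each library stood in 2 of the 4 tables, with 0 differing counts, and was taken once. The deposited CPM columns are the authors' counts scaled to a common total, and CPM was recomputed here from the library totals. Named in the submitters' processing notes are HTSeq 0.6.0, TopHat2 2.0.12, Bowtie2 2.2.3 and the build mm9, but 49 of 50 members had the position GENCODE M21 gives on GRCm38, so coordinates are read as GRCm38; strand use is not stated. A gene is listed where both counts reach 1 or either reaches 5; an unlisted gene, with at most 4 counts, was set to 0 (3158 genes, 12 of them histone genes). The authors' comparisons of single libraries were not used.

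The genotype test used edgeR 4.0.16 (R 4.3.3) on 15097 genes (filterByExpr, TMM factors, quasi-likelihood test, Benjamini-Hochberg adjustment over all genes tested at 0.05). Log2 fold changes are Pd1cKO-Cx3 label minus Pd1fl/fl, with SE. RPKM divides CPM by the kilobases of merged GENCODE M21 exons. Shares of 50-base stretches were instead taken over the longest annotated protein-coding transcript of each member. Named genes were the 8 most abundant and the 6 with the smallest p in each class, the most abundant of each family, and 3 of each of the 3 lists; any others were chosen after their values were seen. The members and lists were chosen with earlier results of these data known. The alternatives were DESeq2 1.42.0, other factors and filters, and leaving out each library. The scripts were tested on simulated data. Histone pseudogenes under the same names were left out of the members. The result of 1 marker list is not reported here.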

Additional observations from a re-analysis of the deposited data

How the results depend on the processing

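No histone gene passed the test under any alternative tried. Without Pd1fl/fl replicate 1 the log2 fold changes of Hist3h2ba and H1f0 were 1.20 and 0.84. Without Pd1fl/fl replicate 2 those of H2afx and Hist1h1d were 0.85 and 2.10. Over all genes, 6 calls became 32 with no filter, 32 with a filter of 5 CPM in 2 libraries and 233 in DESeq2, and 4 to 21 when each library was left out (21 without Pd1fl/fl replicate 2). The median log2 fold change of the cluster genes (-0.084) was -0.10 with upper-quartile factors, -0.076 with library totals only, -0.15 with no filter, -0.11 with the 5 CPM filter and -0.17 to -0.047 when each library was left out. That of the variants (0.34) was 0.17 to 0.50 when each library was left out. The ratio of summed cluster CPM was 0.815 to 1.11 and that of variants 0.977 to 1.09 when each library was left out, and 1.27 for variants without H3f3b. Of 326 fits of the 30 named genes under alternatives, 9 turned the sign, all in 6 histone genes that never passed the test. Hist1h2be was -0.018 with upper-quartile factors and -0.0060 with the 5 CPM filter. When each library was left out, log2 fold changes ran from -0.27 to 0.28 for Hist1h2be, -0.031 to 0.84 for H1f0, -0.35 to 0.092 for H2afj, -0.12 to 0.52 for H2afy, -0.39 to 0.30 for Hist1h1c and -0.31 to 0.0021 for Hist1h4i. The cause of these shifts was not tested. The family sums and their alternatives were added after seeing the data. No paired analysis was possible because the groups share only 1 replicate number. With 2 libraries a group and few counts per cluster gene, small differences were not detectable.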
